A study of Mus musculus with 36 samples.

Results

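Mouse epiblast stem cells (EpiSC) given medium conditioned by embryonic fibroblasts (CM) were set against cells given 1 of 10 small-molecule compounds, in the absence of retinoic acid (RA). The comparison takes 12 of the 36 arrays of the series: every array of the schedule without RA on which CM or a compound was given, leaving out the schedule's single array of basal medium. The 2 CM arrays, here CM replicates 1 and 2, come from cells with no RA (Mock, basal medium, for 36 h) and CM for 24 h. The 10 compound arrays had Mock for 36 h and 1 compound for 24 h. On the first slide these were Rapamycin (100 nM), PF573228 (250 nM), Dorsomorphin dihydrochloride (2 µM), BAY 11-7082 (25 µM) and Forskolin (50 µM), beside CM replicate 1. On the second slide they were BAPTA-AM (10 µM), Docetaxel (500 pM), Wortmannin (50 nM), Purmorphamine (2 µM) and SU5402 (2 µM), beside CM replicate 2. All the cells had been grown on Matrigel in fibroblast-conditioned medium with bFGF and Activin. The labels do not say in which medium the compounds were given, whether the CM of the test held bFGF and Activin, or whether the 2 CM samples are separate cultures, and the p-values measure only how these arrays scatter. Every CM array of the series lay at position F of its slide and the compounds at positions A to E, so that CM, the absence of a compound and position F cannot be told apart. The 10 compound arrays are 10 treatments and not replicates of a control: their spread holds the differences between compounds.

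EpiSC are derived from the epiblast of the embryo after implantation and depend on Activin and FGF signals. Activin and Nodal act through SMAD2 and SMAD3 and induce their own inhibitors, among them the Lefty proteins, while FGF acts through ERK and induces feedback phosphatases. Fibroblasts release growth factors, cytokines and matrix proteins into the medium they condition, and withdrawal or change of such factors is known to alter the balance between self-renewal and the first steps of differentiation. Hypoxia-inducible factors, serum response factor (SRF) and YAP are further transcriptional regulators that respond to oxygen, to actin assembly and to cell contact.

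RNA levels are given as log2 intensity after normalisation, and a probe is called detected where its detection p was under 0.05. Mean raw intensity was 588 ± 42.3 on the CM arrays and 555 ± 80.5 on the compound arrays (SD, n = 2 and n = 10, exact permutation within slides, two-sided p = 0.722), and 38.4% ± 1.76 and 38.6% ± 0.988 of the probes were detected (exact p = 0.667, the smallest possible being 0.0278). Over all genes tested, the CM arrays correlated with each other at r = 0.989 and with the compound arrays at 0.967 to 0.988. The compound arrays correlated with each other at 0.989 to 0.994 apart from Docetaxel, which stood at 0.982 to 0.991 with the rest and is the compound array that stands apart. Of the epiblast markers checked, Pou5f1, the pluripotency factor OCT4, stood at 12.59 and 12.58 on the CM arrays and between 12.18 and 12.49 on the compound arrays, and Dnmt3b, Otx2, Fgf5 and Nanog were detected on all 12 arrays. In these bulk samples, fewer cells of a type and less RNA per cell cannot be told apart.

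Of 13854 genes tested, 577 (4.16%) were higher and 720 (5.2%) lower in CM than in the compound arrays, together 9.36%, at an adjusted p under 0.05 in limma's moderated test with slide as a block. These shares are the background for every count of calls in a gene list or family below. The difference lay above 0 for 7314 of the 13854 genes. The larger changes were mostly falls: 169 genes (1.22%) were lower and 53 (0.383%) higher by at least 1 on the log2 scale. Both CM arrays lay above all 5 compound arrays of their own slide for 1697 genes (12.2%) and below all 5 for 1578 (11.4%). The share of genes with both CM arrays outside the range of all the compound arrays was not counted. Across genes, the difference of CM from its slide mates on the first slide correlated with that on the second slide at r = 0.634 (Spearman's rho 0.513), a description over genes, which are not independent replicates. With 1 CM array left out, 341 genes passed without CM replicate 1 and 320 without CM replicate 2, and 312 and 288 of these were among the 1297. A call described below as lost without either CM array missed the threshold in both of these fits. Without the Docetaxel array 1348 genes passed, 1225 of them shared.

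**Figure D1:**
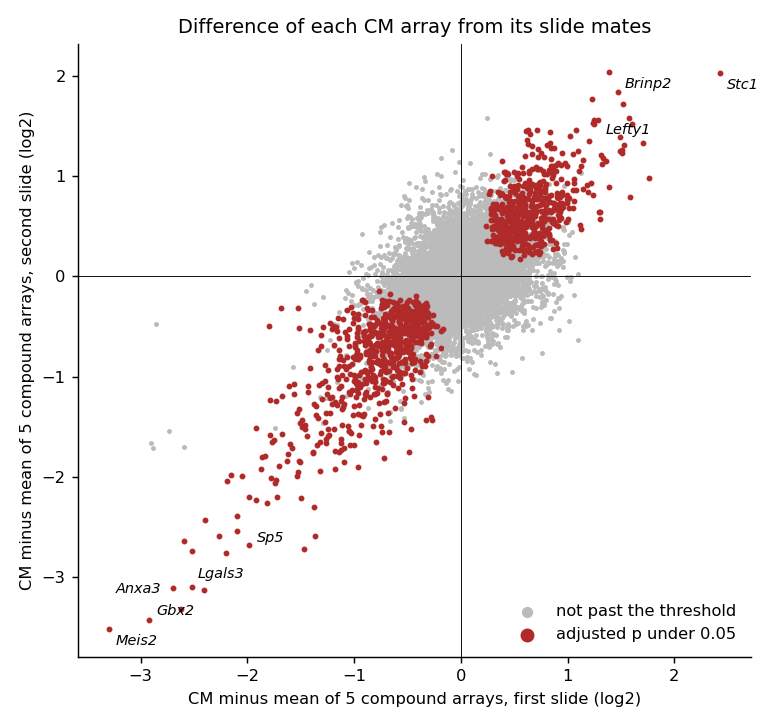
Each point is 1 of 13854 genes, with the log2 difference of the CM array from the mean of its 5 compound slide mates on the first slide (x axis) and on the second slide (y axis), and red points passed an adjusted p under 0.05. Meis2, Gbx2, Anxa3 and Lgals3 lie at the lower left end and Stc1 at the upper right end of a cloud with r = 0.634.

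The largest falls among the named genes were those of the homeobox genes Meis2 and Gbx2, and the zinc-finger genes Sp5 and Sall3 were lower by smaller amounts. Meis2, a TALE homeobox factor of neural and limb patterning, stood at 7.68 and 7.28 on the CM arrays, against 10.33 to 11.33 with a median of 10.88 on the compound arrays. Every compound array was more than 2 log2 units above both CM arrays, and Meis2 was 10.6-fold lower in CM (log2 difference -3.41, SE 0.18, adjusted p = 6.63e-07). Gbx2, a homeobox factor of the hindbrain boundary and a LIF target in naive cells, stood at 7.72 and 7.53 in CM and at 10.20 to 11.14 (median 10.88) with compounds. Gbx2 was thereby 9.03-fold lower in CM (log2 difference -3.18, SE 0.19, adjusted p = 1.42e-06), again with no overlap. Sall3, a spalt zinc-finger factor, stood at 6.44 and 6.30 in CM and at 7.93 to 9.01 (median 8.49) with compounds, a 4.26-fold difference (adjusted p = 0.000189). Sp5, a zinc-finger factor induced by Wnt signals, stood at 5.95 and 5.36 in CM, where 1 of 2 arrays detected it, and at 6.99 to 8.94 (median 7.95) with compounds. The groups did not overlap for Sp5, and its difference of -2.33 (SE 0.45, adjusted p = 0.00581) missed the threshold without either CM array and with the authors' deposited log2 values. The other probes of Meis2 gave differences of -3.58 and -2.79, and the second probe of Sall3 gave -1.36, all past the threshold.

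Fst, Fgfbp1 and Rgma, which act on growth-factor signals outside the cell or at its surface, were lower in CM. Fst, follistatin, which binds and neutralises Activin, stood at 7.54 and 7.28 on the CM arrays and at 9.53 to 11.13 (median 10.06) on the compound arrays. The lowest compound array, Rapamycin, was still well above both CM arrays, and Fst was 6.81-fold lower (log2 difference -2.77, SE 0.28, adjusted p = 6.83e-05). Fgfbp1, a carrier that releases FGFs from the matrix, stood at 7.20 and 6.90 in CM and at 9.16 to 10.07 (median 9.73) with compounds, 6.19-fold lower (adjusted p = 6.92e-06). Rgma, a membrane-anchored BMP co-receptor, stood at 5.46 and 5.58 in CM and at 7.41 to 8.57 (median 8.16) with compounds. For Rgma the groups did not overlap either and the difference was 6.14-fold (log2 difference -2.62, SE 0.21, adjusted p = 9.9e-06).

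Anxa3 and Lgals3 had the largest falls among the named genes after Meis2 and Gbx2, and S100a6 and Ahnak were lower too. Anxa3, an annexin that binds membranes when calcium rises, stood at 8.63 and 8.45 in CM and at 11.00 to 12.12 (median 11.41) with compounds. It was 7.46-fold lower (log2 difference -2.90, SE 0.22, adjusted p = 8.59e-06), and its second probe gave -2.85. S100a6, an EF-hand calcium-binding protein, stood at 8.30 and 8.21 in CM and at 10.42 to 11.54 (median 10.60) with compounds, 5.59-fold lower (adjusted p = 9.9e-06). Ahnak, a very large scaffold protein that binds annexins and S100 proteins at the membrane, stood at 9.19 and 8.76 in CM and at 10.95 to 11.53 (median 11.30) with compounds. Its difference was -2.32 (SE 0.15, adjusted p = 2.94e-06), with -2.42 and -0.66 at its other probes, of which the last missed the threshold (adjusted p = 0.0961). Lgals3, galectin-3, read 6.07 on both CM arrays and 8.01 to 10.02 (median 8.83) on the compound arrays, 7-fold lower (SE 0.32 on the log2 scale, adjusted p = 0.000148). Docetaxel was the highest compound array for Anxa3, S100a6 and Lgals3, and Rapamycin the lowest.

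The annexin, S100, galectin, keratin and integrin families were added after these values had been seen. Of 9 annexins tested, 4 were lower and 0 higher, with a median difference of -0.52 against 0.02 over all genes, of which 5.2% were lower. Anxa2, which assembles with S100a10 at the membrane, stood at 9.67 and 9.57 in CM and at 11.29 to 12.51 with compounds (4.1-fold lower, adjusted p = 9.96e-05). Anxa5 stood at 9.0 and 9.03 in CM and at 10.33 to 11.08 with compounds (3.33-fold lower, adjusted p = 1.7e-05). Anxa6 was lower by a smaller amount (log2 difference -0.70, adjusted p = 0.00562), a call lost without either CM array. Of 7 S100 genes 2 were lower, S100a6 and S100a11 (log2 difference -0.74), and of 6 galectins 2, Lgals3 and Lgals1 (-0.51), with family medians of -0.26 and -0.21. Lgals1 missed the threshold without either CM array and with no slide term.

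The remaining named falls were genes of immune and other functions. H2-M2, a non-classical MHC class I gene, read 4.75 and 4.90 in CM, where it was not detected, and 6.23 to 7.54 (median 7.05) with compounds. A fold against an undetected group is a bound, computed with each CM array floored at its dimmest detected probe: H2-M2 was at least 3.1-fold lower in CM (adjusted p = 0.000348). Mab21l4, also undetected in CM at 4.86 and 4.71, read 6.34 to 7.24 (median 6.91) with compounds and was at least 2.92-fold lower (adjusted p = 6.83e-05). Gbp2, an interferon-induced GTPase, stood at 6.42 and 5.28 in CM, detected on 1 of 2 arrays, and at 7.47 to 8.6 (median 7.93) with compounds (log2 difference -2.09, SE 0.27, adjusted p = 0.000403). The second probe of Gbp2 gave -0.55 and missed the threshold (adjusted p = 0.129). Rtl8c, a gene derived from a retrotransposon Gag sequence, stood at 6.29 and 6.11 in CM and at 7.89 to 8.98 (median 8.47) with compounds, 4.73-fold lower, with no overlap.

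**Figure D2:**
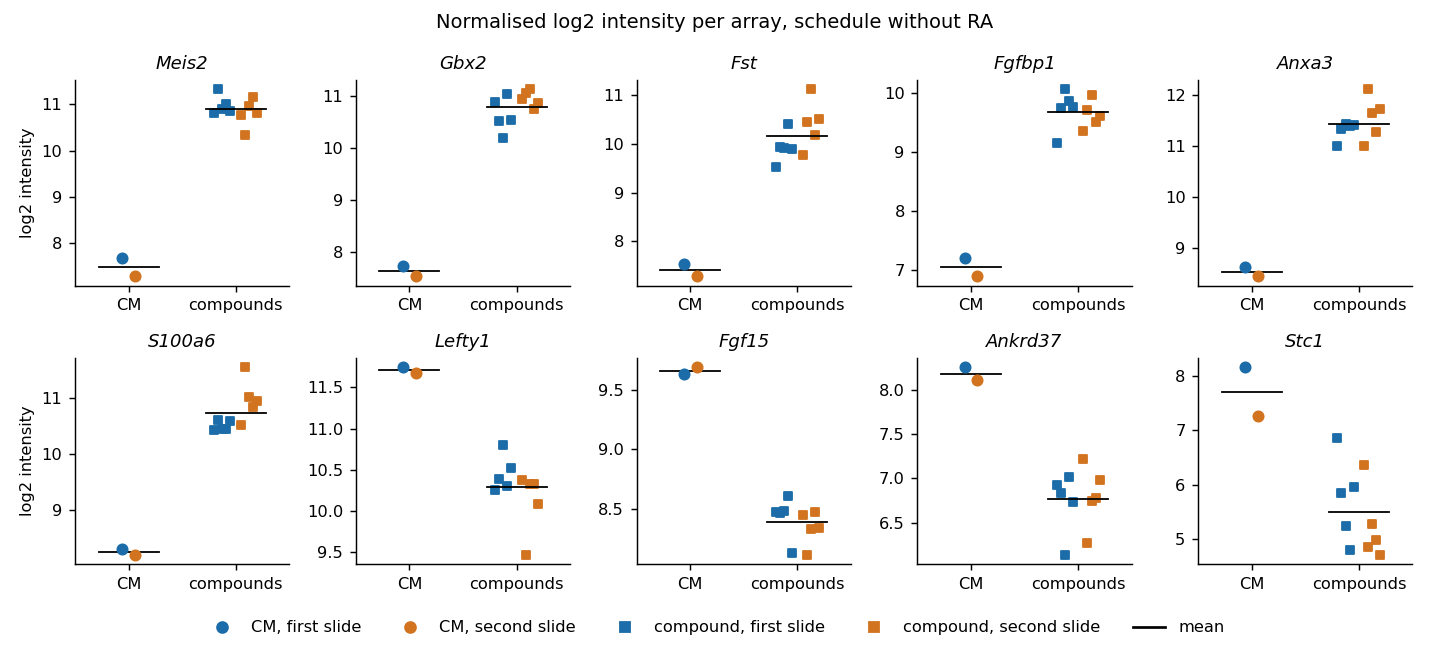
Normalised log2 intensity of 10 genes on the 2 CM arrays (circles) and the 10 compound arrays (squares), coloured by slide, with group means as lines. Both CM arrays lie below every compound array for Meis2, Gbx2, Fst, Fgfbp1, Anxa3 and S100a6 and above every compound array for Lefty1, Fgf15, Ankrd37 and Stc1.

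Among genes higher in CM the largest difference was that of Stc1, stanniocalcin-1, a secreted glycoprotein hormone. It stood at 8.17 and 7.26 on the CM arrays and at 4.71 to 6.87 (median 5.25) on the compound arrays, 4 of which detected it. CM lay above every compound array, the nearest being Rapamycin, and the difference was 2.23 (SE 0.45, adjusted p = 0.00758), a call lost without either CM array. Il10, an anti-inflammatory cytokine, stood at 8.52 and 8.66 in CM and at 6.13 to 7.67 (median 6.91) with compounds, 3.27-fold higher (adjusted p = 0.00496). It missed the threshold without CM replicate 2. Lbh, a transcriptional cofactor of limb and heart, stood at 9.07 and 8.27 in CM and at 6.14 to 7.66 (median 7.19) with compounds, 2.98-fold higher (adjusted p = 0.000517), and its second probe gave 1.01.

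Genes best known from neurons, cilia and sensory cells were among the named rises. Brinp2, a neural protein induced by BMP and RA, stood at 8.21 and 8.61 in CM and at 6.31 to 7.11 (median 6.73) with compounds, 3.15-fold higher (adjusted p = 0.000172). Elavl3, a neuronal RNA-binding protein, stood at 9.95 and 10.14 in CM and at 7.94 to 9.11 (median 8.66) with compounds (log2 difference 1.40, SE 0.23, adjusted p = 0.00196), and missed the threshold without CM replicate 2. Neither gene overlapped between the groups. Sncb, beta-synuclein, read 6.20 and 6.31 in CM and 4.51 to 5.14 with compounds, none of which detected it, so that it was at least 1.94-fold higher (adjusted p = 6.83e-05). Rsph1, a radial-spoke protein of motile cilia, stood at 8.43 and 8.92 in CM and at 6.86 to 7.73 with compounds, 2.82-fold higher (adjusted p = 0.000789). Espn, an actin-bundling protein of sensory hair cells, stood at 8.88 and 8.51 in CM and at 6.95 to 7.48 with compounds, 2.61-fold higher (adjusted p = 1.49e-05). The 3 other probes of Espn gave 0.92, 0.38 and 0.08, of which the first passed, so its fold holds for the named probe.

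Signalling and membrane genes with low levels completed the list. Rgs11, a regulator of G-protein signalling, stood at 7.03 and 6.25 in CM and at 4.73 to 5.58 with compounds (log2 difference 1.52, adjusted p = 4.39e-05). Stk32a, a serine/threonine kinase, stood at 6.79 and 6.58 in CM and at 4.60 to 5.52 with compounds (1.56, adjusted p = 9.97e-05). Tmem91, a transmembrane protein, stood at 6.25 and 6.47 in CM and at 4.68 to 5.52 with compounds (1.38, adjusted p = 0.000442). Both CM arrays detected these genes, while 3 compound arrays detected Rgs11, 3 Stk32a and 1 Tmem91, so the levels with compounds lie largely at background and no fold is given. With the authors' deposited log2 values Tmem91 differed by 0.19 (adjusted p = 0.00249). Both CM arrays lay above every compound array for each of these genes, which is partly built in by the way they were picked.

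Activin and Nodal genes did not move as a group: of 10 tested, 1 was higher and 1 lower, with a median of 0.15. Lefty1, a secreted Nodal inhibitor and a Nodal target, stood at 11.74 and 11.67 in CM and at 9.47 to 10.80 (median 10.33) with compounds. CM lay above every compound, Dorsomorphin dihydrochloride being nearest, and Lefty1 was 2.68-fold higher (log2 difference 1.42, SE 0.20, adjusted p = 0.000907). The gene that was lower is Fst, given above. Nodal itself, the ligand, stood at 10.74 and 10.70 in CM and at 10.19 to 10.94 with compounds (difference 0.17, adjusted p = 0.606). Lefty2 differed by 0.44 (adjusted p = 0.134), Cer1, another secreted Nodal inhibitor, by 0.75 (adjusted p = 0.0564) and Tdgf1, the Nodal co-receptor, by 0.06 (adjusted p = 0.932). With CM replicate 1 left out, 3 of the 10 were higher.

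FGF and ERK response genes were lower where they passed, 5 of 15 and none higher, with a median of -0.41, while 5.2% of all genes were lower. Phlda1, an ERK-induced pleckstrin-homology protein, stood at 7.81 and 7.62 in CM and at 9.27 to 10.02 (median 9.54) with compounds, 3.71-fold lower (SE 0.18 on the log2 scale, adjusted p = 4.91e-05). Dusp5, a nuclear ERK phosphatase, stood at 6.55 and 6.24 in CM and at 7.38 to 8.08 with compounds (2.56-fold lower), and Dusp4, its relative, at 9.17 and 9.08 in CM and 9.86 to 10.17 with compounds (1.86-fold lower). For each of these genes both CM arrays lay below all their slide mates, as they did for 11.4% of all genes. Egr1, an immediate early factor (log2 difference -0.72), and Ccnd1, cyclin D1 (-0.41), were lower with calls that were lost without either CM array. Other feedback genes of the same pathway missed the threshold: Dusp6 differed by -0.31 (adjusted p = 0.122), Spry4 by -0.43 (adjusted p = 0.113), Etv4 by -0.04 and Etv5 by 0.44 (adjusted p = 0.0679).

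Of 7 FGF ligands and receptors, 1 was higher and 2 were lower. Fgf15, the mouse ligand known for its role in bile acid control and in neural development, stood at 9.63 and 9.69 in CM and at 8.12 to 8.61 (median 8.46) with compounds, 2.41-fold higher (adjusted p = 5.96e-05). Fgf8, a ligand of the primitive streak, stood at 8.53 and 7.73 in CM and at 9.08 to 9.92 (median 9.40) with compounds, 2.54-fold lower (adjusted p = 0.00152), a call lost without CM replicate 2. Fgfr2 stood at 8.93 and 9.12 in CM and at 9.63 to 10.09 with compounds, 1.88-fold lower (adjusted p = 0.000853). Both CM arrays lay above all their slide mates for Fgf15, as they did for 12.2% of all genes. They lay below all their slide mates for Fgf8 and Fgfr2, as for 11.4% of all genes.

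Core pluripotency genes showed 1 fall among 11. Nanog stood at 11.58 and 11.64 in CM and at 10.84 to 11.95 with compounds (difference 0.15, adjusted p = 0.652), Pou5f1 differed by 0.25 (adjusted p = 0.116) and Sox2 by -0.48 (adjusted p = 0.0806). Lin28a, an RNA-binding protein that blocks let-7 maturation, stood at 9.42 and 10.14 in CM and at 10.16 to 11.39 with compounds (log2 difference -1.04, adjusted p = 0.00304), and its call was lost without CM replicate 1. The CM arrays disagreed for Trim71, a let-7 target and RNA regulator, at 6.76 and 9.97, against 9.12 to 10.88 with compounds (adjusted p = 0.0519). Without CM replicate 2, 2 members passed as lower.

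Of 8 naive pluripotency genes, 3 were lower and 1 higher. Klf5, a Krüppel-like factor of naive cells and epithelia, stood at 7.66 and 7.64 in CM and at 9.21 to 9.97 (median 9.45) with compounds, 3.69-fold lower (SE 0.15 on the log2 scale, adjusted p = 9.9e-06). Klf2 stood at 5.41 and 5.17 in CM, detected on 1 of 2 arrays, and at 5.95 to 7.42 with compounds (log2 difference -1.48, adjusted p = 0.00179), and Tfcp2l1 differed by -0.93 (adjusted p = 0.0115). The higher gene was Dppa5a, an RNA-binding protein of naive cells (1.03, adjusted p = 0.0118). The calls of Klf2 and Dppa5a were lost without CM replicate 2 and that of Tfcp2l1 without either CM array. Among 10 primed epiblast genes, Otx2 (0.59, adjusted p = 0.00407) and Dnmt3b (0.32, adjusted p = 0.0433) were higher and Wnt8a (-1.57, adjusted p = 0.000188) and Pou3f1 (-0.48, adjusted p = 0.00455) lower. Wnt8a, a Wnt ligand of the streak, stood at 8.17 and 7.89 in CM and at 9.07 to 10.00 with compounds. Otx2 missed the threshold without CM replicate 2, and Pou3f1 and Dnmt3b without either CM array. Dnmt3b, 1 of 4 DNA methylation genes tested and the only call among them, missed it under 12 alternatives in all.

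**Figure D3:**
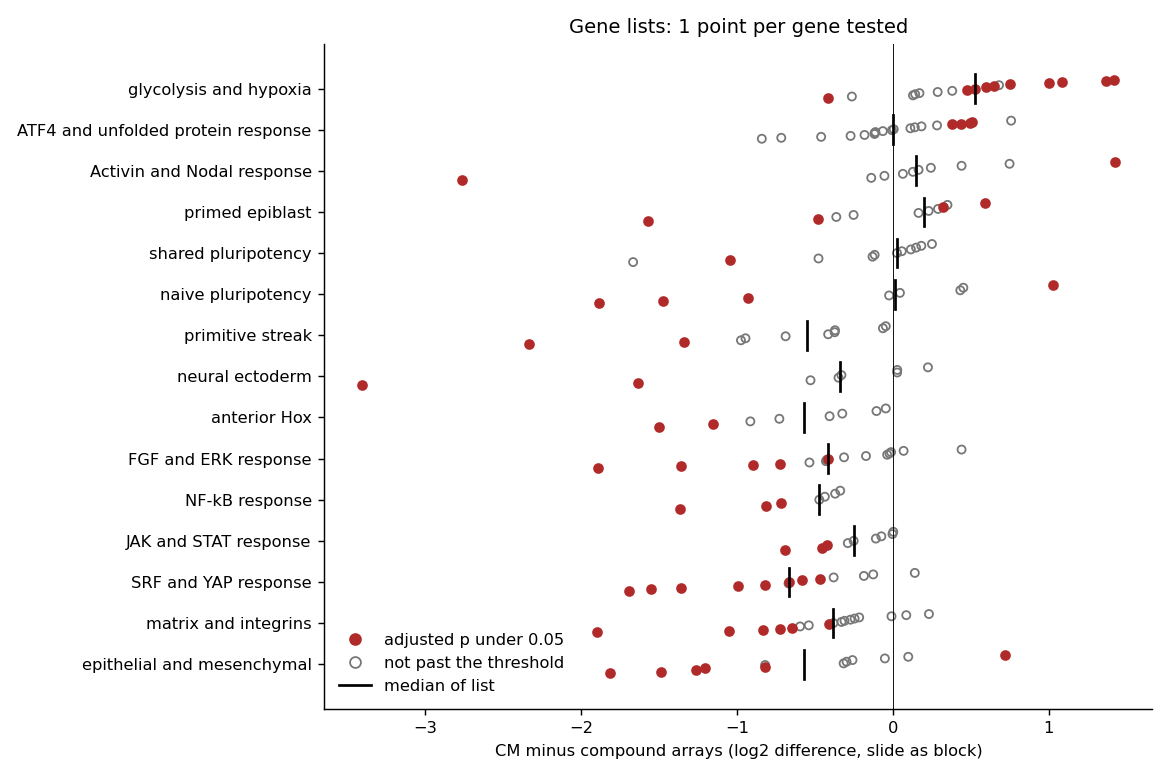
Each point is the log2 difference of CM minus the compound arrays for 1 gene of 15 of the gene lists, filled where the adjusted p was under 0.05, with a black line at the list's median. Medians lie at 0.53 for glycolysis and hypoxia, -0.67 for SRF and YAP response and -0.57 for epithelial and mesenchymal genes, against 0.02 over all genes tested.

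Glycolysis and hypoxia genes were higher in CM in 9 of 17 cases and lower in 1, with a median of 0.53 against 0.02 over all genes, of which 4.16% were higher. Pdk1, a pyruvate dehydrogenase kinase, stood at 9.16 and 8.75 in CM and at 7.24 to 8.41 (median 7.39) with compounds. It was 2.59-fold higher (log2 difference 1.37, SE 0.27, adjusted p = 0.00639). Ankrd37, an ankyrin-repeat gene known as a target of HIF-1, stood at 8.25 and 8.11 in CM and at 6.14 to 7.22 (median 6.81) with compounds, 2.67-fold higher (adjusted p = 0.00176). CM lay above every compound array for both. Mgarp, a mitochondrial protein known to be induced by hypoxia and no member of the list, stood at 9.87 and 9.34 in CM and at 7.36 to 8.97 (median 8.25) with compounds (1.44, SE 0.31, adjusted p = 0.0104). Rapamycin was the nearest compound array to CM for Pdk1 and Mgarp, and both calls were lost without either CM array.

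The oxygen-sensing prolyl hydroxylases and the glycolytic enzymes accounted for the other rises. Egln1 stood at 6.50 and 6.18 in CM and at 4.67 to 6.09 with compounds, 3 of which detected it (1.09, adjusted p = 0.00707), and Egln3 at 9.13 and 8.75 in CM and 8.09 to 8.65 with compounds (0.60, adjusted p = 0.0143). Pgk1, phosphoglycerate kinase, stood at 13.28 and 13.30 in CM and at 12.46 to 12.85 with compounds, 1.57-fold higher (adjusted p = 0.00182). Pfkp and Pfkl, phosphofructokinases, were 2.01-fold and 1.69-fold higher, Ldha, lactate dehydrogenase A, 1.44-fold and Tpi1, triosephosphate isomerase, 1.39-fold. Both CM arrays lay above all their own slide mates for each of these, as they did for 12.2% of all genes. The fall was that of Slc2a3, the glucose transporter GLUT3 (log2 difference -0.42, adjusted p = 0.0198). Slc2a1, the transporter GLUT1, differed by -0.26 (adjusted p = 0.306) and Vegfa, an angiogenic factor induced by hypoxia, by 0.14 (adjusted p = 0.398), and neither passed. The count fell to 1 without CM replicate 1 and to 3 without CM replicate 2, while the median stood at 0.39 and 0.61, and 9 were higher without Docetaxel.

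**Figure D4:**
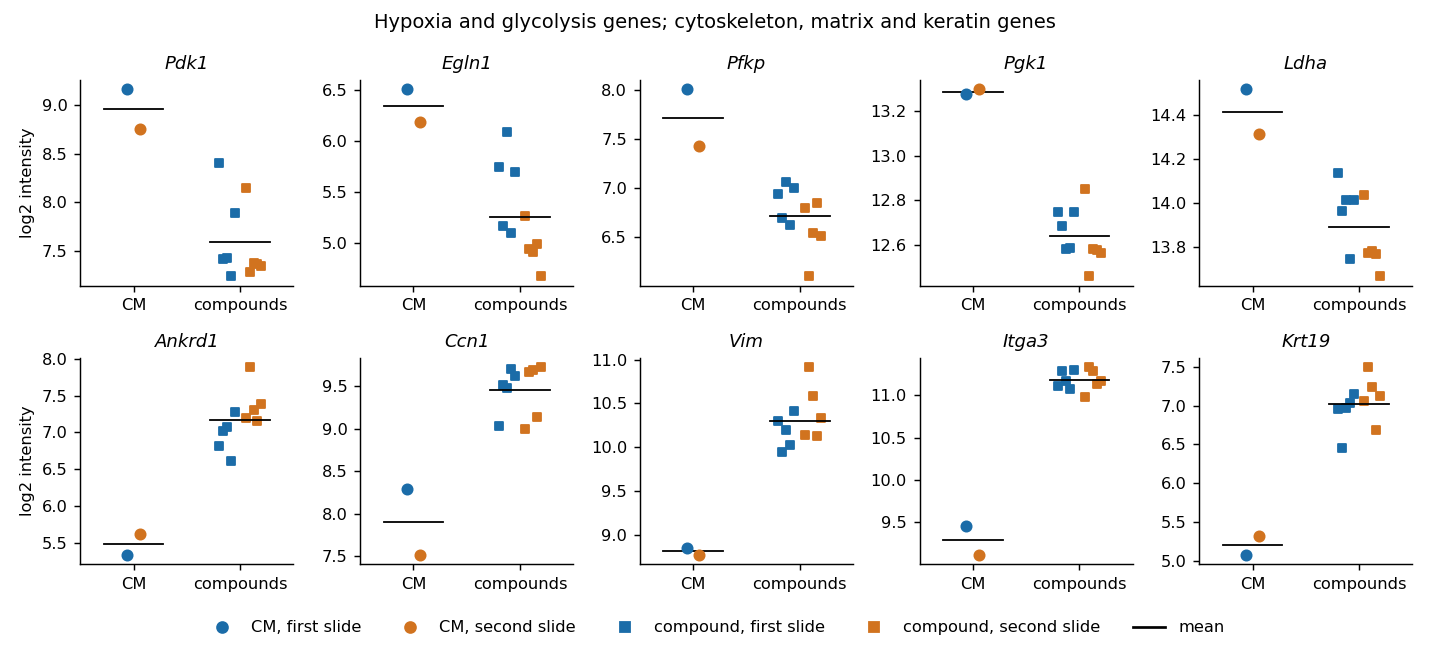
Normalised log2 intensity on the 2 CM arrays (circles) and 10 compound arrays (squares), coloured by slide, with means as lines. Pdk1, Egln1, Pfkp, Pgk1 and Ldha lie above every compound array in CM, and Ankrd1, Ccn1, Vim, Itga3 and Krt19 below every compound array.

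Promoters of the glycolysis and hypoxia genes were searched for a core motif of HIF binding sites. Pdk1, Pfkl, Pfkp and Tpi1, which were called, held no match. The letters searched were ACGTG on both strands, in RefSeq windows of 300 bases around each start site on GRCm38.p6. The printed windows are those of the 4 called genes with a single window and at least 1 match: Ankrd37 on chr8:45999801-46000100 (minus strand), Egln1 on chr8:124949205-124949504 (minus strand), Egln3 on chr12:54203825-54204124 (minus strand) and Pgk1 on chrX:106186850-106187149 (plus strand). Capitals mark the motif, read as CACGT where it lies on the other strand.
Ankrd37: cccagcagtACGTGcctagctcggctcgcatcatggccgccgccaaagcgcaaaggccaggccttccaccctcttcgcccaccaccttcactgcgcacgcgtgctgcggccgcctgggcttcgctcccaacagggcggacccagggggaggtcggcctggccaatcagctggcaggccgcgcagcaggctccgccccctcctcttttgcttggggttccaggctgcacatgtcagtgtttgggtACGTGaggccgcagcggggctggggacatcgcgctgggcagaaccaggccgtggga
Egln1: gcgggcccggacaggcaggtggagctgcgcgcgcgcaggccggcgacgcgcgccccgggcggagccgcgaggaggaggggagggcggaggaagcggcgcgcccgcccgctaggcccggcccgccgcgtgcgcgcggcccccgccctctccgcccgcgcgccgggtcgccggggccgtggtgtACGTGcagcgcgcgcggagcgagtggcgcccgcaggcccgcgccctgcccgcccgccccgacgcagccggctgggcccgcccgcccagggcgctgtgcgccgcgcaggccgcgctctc
Egln3: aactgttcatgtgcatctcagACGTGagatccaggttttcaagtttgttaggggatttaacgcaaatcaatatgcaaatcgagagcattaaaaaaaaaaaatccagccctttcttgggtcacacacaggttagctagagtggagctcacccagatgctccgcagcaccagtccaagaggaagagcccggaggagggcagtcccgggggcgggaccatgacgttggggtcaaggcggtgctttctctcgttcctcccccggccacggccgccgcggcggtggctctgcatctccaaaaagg
Pgk1: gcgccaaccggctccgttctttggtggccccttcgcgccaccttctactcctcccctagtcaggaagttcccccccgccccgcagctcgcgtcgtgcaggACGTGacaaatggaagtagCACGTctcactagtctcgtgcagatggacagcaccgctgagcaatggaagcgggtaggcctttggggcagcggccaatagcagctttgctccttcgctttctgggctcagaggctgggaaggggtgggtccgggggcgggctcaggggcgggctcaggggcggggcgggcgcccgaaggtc

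Matches began 241 and 6 bases before the start site of Ankrd37, 68 before that of Egln1, 229 before that of Egln3 and 150 and 131 before that of Pgk1. Of the 9 called genes that were higher, 5 had a match, in 5 of 11 windows (45.5%), the fifth gene being Ldha. Of 6 list members that missed the threshold and had a window, 5 had a match, in 6 of 9 windows (66.7%). Among all 32851 windows of this length 6447 (19.6%) held the letters. A match says only that these letters lie in the window.

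Target genes of SRF and YAP were lower in 8 of 13 cases, with none higher and a median of -0.67, while 5.2% of all genes were lower. Ankrd1, a YAP target, stood at 5.34 and 5.61 in CM and at 6.61 to 7.89 (median 7.18) with compounds, 3.24-fold lower (SE 0.18 on the log2 scale, adjusted p = 0.000106). Ccn1, a matricellular protein and YAP target, stood at 8.29 and 7.52 in CM and at 8.99 to 9.72 (median 9.57) with compounds, 2.93-fold lower (adjusted p = 0.00099). Both CM arrays lay below all their slide mates for these 2 genes, as they did for 11.4% of all genes. Thbs1, thrombospondin-1, read 5.19 and 4.78 on the CM arrays, which did not detect it, and 5.79 to 7.03 with compounds, and was at least 2.04-fold lower (adjusted p = 0.00595). Tagln (-0.99), Axl (-0.82), Vcl, which encodes vinculin (-0.67), Amotl2 (-0.59) and Tpm1, a tropomyosin (-0.47), were lower too. Ccn2 differed by -0.38 (adjusted p = 0.207) and Srf itself by 0.14 (adjusted p = 0.422). With CM replicate 1 left out 4 members were lower, without CM replicate 2 only Ankrd1, with medians of -0.59 and -0.58, and without Docetaxel 9.

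Matrix and integrin genes were lower in 6 of 17 cases and higher in none (median -0.38), while 5.2% of all genes were lower. Itga3, a laminin-binding integrin chain, stood at 9.45 and 9.12 in CM and at 10.98 to 11.33 (median 11.17) with compounds, 3.74-fold lower (log2 difference -1.90, SE 0.11, adjusted p = 1.42e-06). Sparc, a collagen-binding matrix protein, stood at 10.12 and 10.05 in CM and at 10.98 to 11.31 with compounds, 2.07-fold lower (adjusted p = 1.98e-05). Fn1, fibronectin, read 8.79 on both CM arrays and 9.30 to 9.64 with compounds (-0.65, adjusted p = 0.001), and Hspg2, perlecan, differed by -0.83, Col4a2 by -0.72 and Itga6 by -0.41. The laminin chains Lama5 (0.23), Lamb1 (0.09) and Lamc1 (-0.25) did not pass. Of 14 integrins 3 were lower, the other being Itgb4, the partner of Itga6, at 5.51 and 5.63 in CM and 6.61 to 8.15 with compounds (-1.90, adjusted p = 0.0025). Without CM replicate 1, 3 of the 17 were lower and without CM replicate 2, 4, and of the integrins Itga3 alone passed in each.

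Of 12 epithelial and mesenchymal genes 5 were lower and 1 higher (median -0.57), against 5.2% lower and 4.16% higher over all genes, and the 5 came from both classes. The simple-epithelium keratins Krt8 (2.31-fold) and Krt18 (1.77-fold) were lower, and Krt19, undetected in CM at 5.08 and 5.33 and at 6.46 to 7.49 with compounds, was at least 3.26-fold lower (adjusted p = 7.01e-05). Vim, vimentin, the mesenchymal intermediate filament, stood at 8.85 and 8.77 in CM and at 9.94 to 10.91 (median 10.24) with compounds, 2.8-fold lower (adjusted p = 0.000325). Zeb2, a repressor of E-cadherin, differed by -1.26 (adjusted p = 0.00126), and Cdh1, E-cadherin, by -0.26 (adjusted p = 0.121). Ocln, occludin of tight junctions, was the member that was higher (0.72, adjusted p = 0.0163). Docetaxel was the highest compound array for the 3 keratins and for Vim and Zeb2. Of 16 keratins tested 3 were lower, with a family median of -0.12. Without CM replicate 1 the list had 3 lower and without CM replicate 2, 4, and Ocln and Krt18 missed the threshold in each, Zeb2 in the first.

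Developmental lists held few calls. Of 10 primitive streak genes 2 were lower, Sp5 and Fgf8, against 5.2% of all genes. All 10 lay below 0, with a median of -0.55, while 7314 of all 13854 genes lay above 0. Levels were low, with a mean over the 10 of 6.23 and 6.08 on the CM arrays and 6.42 to 7.46 on the compound arrays. Eomes, a T-box factor of the streak, stood at 7.48 and 7.28 in CM and at 7.06 to 8.89 with compounds (-0.69, adjusted p = 0.357), and Gsc differed by -0.95 (adjusted p = 0.0837). Without CM replicate 1, 1 of the 10 passed and without CM replicate 2, 0. Of 8 neural ectoderm genes 2 were lower (median -0.34), Meis2 and Irx3, a homeobox factor at 8.31 and 8.33 in CM and 9.56 to 10.34 with compounds (-1.64, adjusted p = 0.000487). Of 10 definitive endoderm genes 2 were higher (median 0.01): Foxa3 (0.86, adjusted p = 0.000196) and Trh, thyrotropin-releasing hormone, at 14.56 and 14.52 in CM and 13.54 to 13.87 with compounds (0.86, adjusted p = 9.75e-05).

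None of the anterior Hox or RA response genes tested passed as higher in CM. Of 8 anterior Hox genes 2 were lower (median -0.57). Hoxa2 was undetected in CM at 4.74 and 4.93, against 5.75 to 6.91 with compounds (at least 2.03-fold lower, adjusted p = 0.00154), and Hoxb2 differed by -1.16 (adjusted p = 0.0339). Of 10 RA response genes 2 were lower (median -0.38): Rarb, the RA receptor beta, at 6.82 and 7.34 in CM and 7.26 to 7.93 with compounds (-0.61, adjusted p = 0.0286), for which CM replicate 2 lay inside the range of the compounds, and Rdh10, a retinol dehydrogenase undetected in CM. Cyp26a1, which degrades RA, differed by -0.60 (adjusted p = 0.0727). Hoxb2 and Rdh10 missed the threshold without either CM array and Rarb without CM replicate 1.

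Other signalling lists split or held single calls. BMP response genes had 1 higher and 1 lower of 7 (median -0.35): Id3 (0.68, adjusted p = 0.0118) and Id2 (-1.30, adjusted p = 0.00081), inhibitors of helix-loop-helix factors. Id2 stood at 7.27 and 7.62 in CM and at 8.39 to 9.24 with compounds, and Id3 at 7.93 and 8.25 in CM and 7.08 to 7.75 with compounds, so the 2 BMP targets lay on opposite sides of the compounds. Notch genes had 2 higher of 7 (median -0.21), the target Hey1 (0.83, adjusted p = 0.000356) and the receptor Notch3 (0.89, adjusted p = 0.00182). Wnt response genes had 1 lower of 8 (median -0.20), the factor Lef1 (-0.52), and Axin2, a feedback inhibitor, differed by -0.12 (adjusted p = 0.731). Neither of 2 Hedgehog response genes passed in limma, 0 also at an unadjusted p under 0.05 (median -0.16). Among 7 cAMP response genes, the phosphodiesterases Pde4b (0.80) and Pde4d (0.78) were higher and Dusp1 (-0.61) lower (median 0.19). Id3 and Pde4b missed the threshold without CM replicate 2, Notch3 without CM replicate 1, and Lef1, Pde4d and Dusp1 without either.

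Members of the NF-kB, JAK and STAT and interferon response lists were lower where they passed, apart from Stat2. Of 7 NF-kB response genes 3 were lower, against 5.2% of all genes. All 7 lay below 0 (median -0.47), while 7314 of all 13854 genes lay above 0. Cxcl1, a neutrophil chemokine, stood at 5.46 and 5.79 in CM and at 6.45 to 7.28 with compounds (2.58-fold lower, adjusted p = 0.00102), Nfkbia, the inhibitor of NF-kB, at 7.77 and 7.67 in CM and 8.17 to 8.70 with compounds (1.64-fold), and Cxcl10 differed by -0.81. BAY 11-7082, the compound given against NF-kB activation, read the highest of the compounds for Cxcl10, at 6.30. Of 9 JAK and STAT response genes 3 were lower (median -0.25), Pim3 (-0.69), Junb (-0.46) and Socs3, the feedback inhibitor of cytokine receptors (-0.42). Of 10 interferon response genes 2 were lower, Gbp2 and Ifitm3 (-0.79), and Stat2 was higher (0.71), with a median of -0.05. The calls of Nfkbia, Cxcl10, Junb, Socs3, Stat2 and Ifitm3 were lost without either CM array, and those of Cxcl1 and Pim3 without CM replicate 1. Cxcl10 and Junb also missed the threshold with the authors' deposited log2 values.

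Growth-factor and nutrient genes moved both ways. Of 12 FOXO and insulin signalling genes 3 were lower and 2 higher (median 0.02). Irs2, an insulin receptor substrate, stood at 8.96 and 9.30 in CM and at 10.07 to 10.74 with compounds (2.41-fold lower, adjusted p = 0.000114), Cited2, a CBP-binding regulator of HIF-1, at 8.79 and 9.18 in CM and 10.18 to 10.67 with compounds (2.56-fold lower), and Gadd45a differed by -0.81. Txnip, which inhibits thioredoxin and glucose uptake, was higher by 1.37 (adjusted p = 0.0393), with CM at 9.95 and 9.35 and Docetaxel between them at 9.59, and Ccng2 by 0.42. Of 6 insulin-like growth factor genes 2 were lower (median -0.17), Igf2 at 9.69 and 9.97 in CM and 10.75 to 11.76 with compounds (2.5-fold), and Igfbp3 (-0.98). Txnip, Ccng2 and Igfbp3 missed the threshold without either CM array, and over all 22 alternatives Ccng2 missed it in 13 and Txnip in 10, among them fits that left out single compound arrays.

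Stress, growth and metabolism lists had few calls in either direction. ATF4 and unfolded protein response genes had 4 higher of 20 (median 0.00), the glutathione-degrading enzyme Chac1 (0.50), the serine and glycine enzymes Psat1 (0.44) and Shmt2 (0.38) and the lipoprotein receptor Vldlr (0.51), while Atf4 itself differed by -0.12 (adjusted p = 0.534). Of these, 1 passed without CM replicate 1 and 0 without CM replicate 2. Of 8 NRF2 response genes 2 were lower, Hmox1 (-0.59) and Srxn1 (-0.35), of 4 metal response genes 1, the metallothionein Mt1 (-0.65), and of 9 heat shock genes 1, Hspb1 (-1.04), with medians of -0.01, -0.32 and -0.07. Sterol synthesis had 2 lower of 11, Srebf2 (-0.62) and Stard4 (-0.35), with a median of -0.30, and lysosome and autophagy 2 lower of 12, Cd63 (-0.60) and Lamp2 (-0.57), with a median of -0.12. Single genes were higher among 12 p53 targets (Pmaip1, 0.74, list median -0.11), 10 mitosis genes (Cenpf, 0.54, list median 0.23), 13 DNA replication genes (Pcna, 0.50, list median 0.14) and 10 amino acid transporters (Slc1a4, 0.43, list median 0.13). No member of the MYC and ribosome biogenesis (11 genes, median 0.03) or fatty acid synthesis lists (9 genes, median 0.01) passed in limma, and 0 of either had an unadjusted p under 0.05. Of 3 germ cell genes 0 passed (median 0.49), with 1 at an unadjusted p under 0.05. Every call of this paragraph was lost without 1 or both of the CM arrays, and over all alternatives Srxn1 missed the threshold in 15, Hmox1 in 14, Stard4 in 12 and Shmt2 in 10.

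Markers of other cell types were read because CM is made on fibroblasts and EpiSC can differentiate. Of 9 fibroblast markers 1 was lower, the collagen Col5a1 (-0.68, adjusted p = 0.00485, lost without CM replicate 1), and 0 were higher (median -0.26). The mean log2 intensity over the 9 was 6.30 and 6.37 on the CM arrays and 6.40 to 6.69 on the compound arrays. Col1a2 and Fbln2 were undetected in CM, and Dcn, decorin, stood at 8.36 and 9.24 in CM and at 8.93 to 9.81 with compounds. Of 10 epiblast stem cell markers 3 were higher and 1 lower (median 0.21), with mean levels of 11.00 and 11.20 in CM and 10.80 to 10.98 with compounds. Extraembryonic endoderm markers had 1 higher of 10, Apoa1 (1.06, lost without either CM array), and 1 lower, Sparc (median 0.00), with mean levels of 6.30 and 6.45 in CM and 6.23 to 6.56 with compounds. Trophoblast markers had 1 lower of 3, Gata3 (-0.71, median -0.53), and neural crest markers 1 lower of 3, Ngfr (-0.88, median -0.40). Gata3 missed the threshold without CM replicate 1 and with the authors' deposited log2 values, and Ngfr without either CM array. None of 3 lateral mesoderm markers passed in limma (median 0.10), with 1 at an unadjusted p under 0.05. The part of these markers in the other differences was not tested.

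The compound arrays nearest to CM differed between genes. On the first slide Rapamycin was the nearest slide mate for 31.6% of the 1297 called genes, against 21.9% of all genes, and on the second slide BAPTA-AM for 45.5%, against 28.1%. Docetaxel was the farthest for 48.3% of the called genes on the second slide, against 37.3% of all genes. Among named genes, Rapamycin was the lowest compound array for Anxa3, Lgals3, Fst, Fgfbp1, S100a6, Rtl8c, H2-M2, Gbp2 and Mab21l4, and the highest for Stc1, Il10, Rgs11, Mgarp, Elavl3, Espn and Pdk1. Without the Rapamycin array 1269 genes passed and without BAPTA-AM 1559.

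The remaining CM array of the series came from cells with 5 µM RA for 24 h and CM for 36 h, and was set against the 5 compound arrays of its own slide, none of which enters the comparison above. Of the 15 named genes that were higher without RA, 11 lay above their slide mates on it, and of the 15 lower 13 lay below. Over all called genes it lay above for 314 of the 577 (54.4%, against 49.9% of all genes) and below for 505 of the 720 (70.1%, against 50.1%). Fgfbp1 differed from its mates by -2.54, H2-M2 by -2.32, Mab21l4 by -1.92, S100a6 by -1.45 and Gbp2 by -1.40 on this array, and Pdk1 by 1.66, Stc1 by 1.52, Lbh by 1.18 and Ankrd37 by 0.81. Meis2 and Gbx2 read 12.04 and 12.33 on it and differed from its mates by -0.40 and -0.28. Lefty1 went the other way, at 7.17 against a mean of 9.85 on its slide mates. Across genes, the differences of this CM array correlated at r = 0.175 (Spearman's rho 0.154) with the mean differences of the CM arrays without RA. With those of the Mock array with RA for 24 h, on another slide, they correlated at r = 0.468 (rho 0.341). With 1 array, these differences have no replicate check of their own.

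A test of the difference between the CM effect without RA and that with RA for 24 h was chosen after the values had been seen. It took arrays of several slides into 1 fit and found 897 genes (6.47%) past the threshold. The arm with RA is 1 CM array, assumed to vary like the other arrays of the fit, and the genes named here were chosen for their difference without RA, which is 1 term of the tested difference, so how many of them passed is not read as a result. The effect on Lefty1 was 4.10 higher without RA on the log2 scale (adjusted p = 2.2e-07). For Meis2 the difference between the effects was -3.01 (adjusted p = 4.54e-07) and for Gbx2 -2.89 (adjusted p = 8.1e-07). Fgfbp1 (adjusted p = 0.928), H2-M2 (adjusted p = 0.89), Mab21l4 (adjusted p = 0.886), Pdk1 (adjusted p = 0.881), Stc1 (adjusted p = 0.639) and Lbh (adjusted p = 0.626) missed the threshold, which does not show that the effects are alike. The 2 schedules also differ in the time with CM, 24 h without RA and 36 h with RA.

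**Figure D5:**
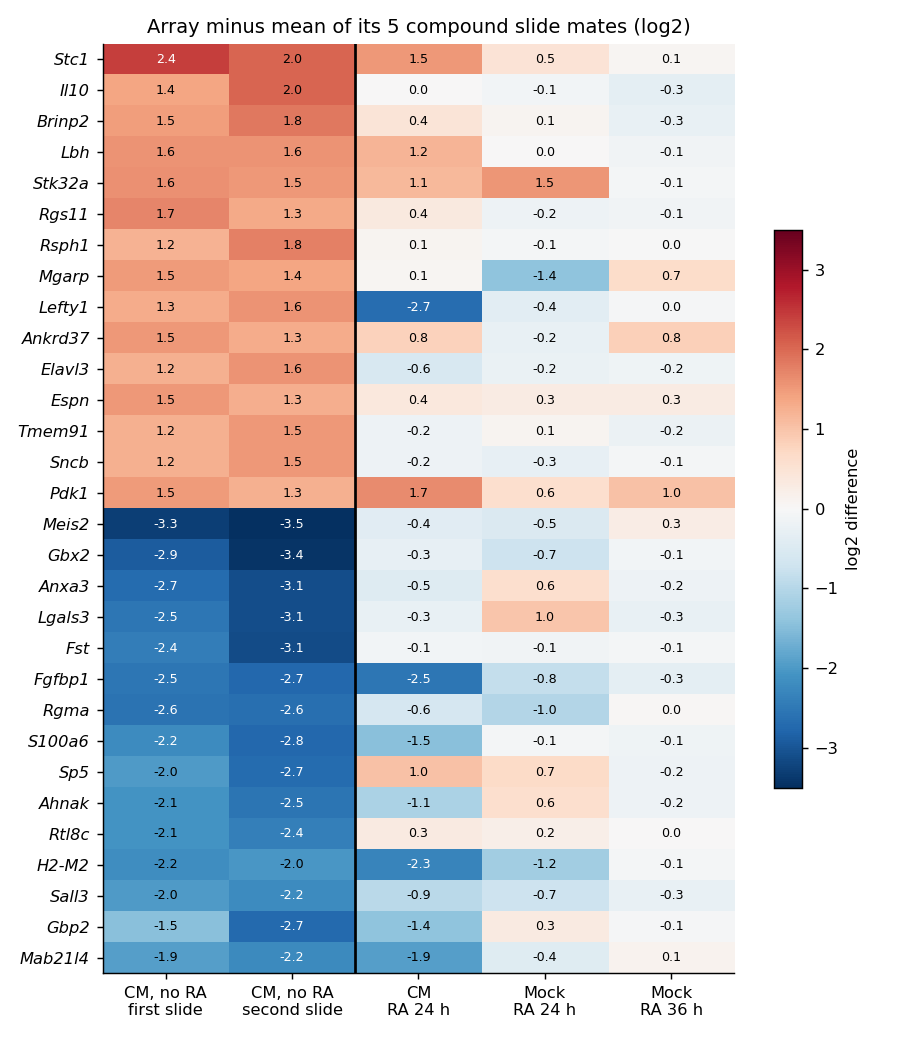
Log2 difference of an array from the mean of its 5 compound slide mates, for the 30 named genes (rows), on the CM arrays without RA, the CM array with RA for 24 h and the Mock arrays with RA for 24 h and 36 h (columns), all at position F. Fgfbp1 reads -2.5, -2.7 and -2.5 on the 3 CM arrays and -0.8 and -0.3 on the Mock arrays.

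Basal medium arrays at the same position F were available in the schedules with RA. On the Mock array with RA for 24 h, 7 of the 15 named higher genes lay above and 9 of the 15 lower genes below their slide mates, and on that with RA for 36 h 5 and 11. Over the called genes, the Mock array with RA for 24 h lay below its mates for 343 of the 720 lower genes (47.6%, against 52.4% of all genes), and the Mock array with RA for 36 h for 504 (70%, against 51.2%). Above their mates they lay for 255 (44.2%, against 47.6% of all genes) and 305 (52.9%, against 48.8%) of the 577 higher genes. Meis2 read -0.50 and 0.27 from its mates on the Mock arrays with RA for 24 h and 36 h, Anxa3 0.58 and -0.17, and Ahnak 0.59 and -0.18. Pdk1 read 0.59 and 1.03, and Stk32a 1.54 and -0.08.

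The 3 CM arrays were therefore also set against the 2 Mock arrays with RA, each relative to its own slide mates. Both Mock arrays lay beside the same compounds as CM replicate 1. CM replicate 2 and the CM array with RA lay beside the other compounds, among them Docetaxel. Both Mock arrays had RA, while CM replicates 1 and 2 did not. The effect of CM is thus partly mixed with RA and with the set of compounds used as reference. This comparison uses the same CM and compound arrays as the one above, and 141 genes passed (1.02%), 32 higher (0.231%) and 109 lower (0.787%). Of the 15 named lower genes 9 passed: Fgfbp1 (-2.01, adjusted p = 8.85e-06), Ahnak (-2.12, adjusted p = 4.35e-05), Mab21l4 (-1.88), S100a6 (-2.04), Gbp2 (-1.99), Anxa3 (-2.29), Meis2 (-2.29), H2-M2 (-1.53) and Sall3 (-1.22). Of the 15 named higher genes 3 passed, Lbh (1.49, adjusted p = 0.00293), Rgs11 (1.29) and Brinp2 (1.33). The named genes were chosen for their difference on CM replicates 1 and 2, which enter this comparison too. How many of them passed is therefore not read as a result. Klf5 (-1.44, adjusted p = 4.82e-05) and Dusp5 (-1.11, adjusted p = 0.0323) passed as well, and 4 of 13 SRF and YAP genes, 3 of 17 matrix and integrin genes and 3 of 12 epithelial and mesenchymal genes did. Gbx2 (adjusted p = 0.0562), Fst (adjusted p = 0.0954), Stc1 (adjusted p = 0.0966) and Pdk1 (adjusted p = 0.65) did not, nor did any of the 17 glycolysis and hypoxia genes. Without the CM array with RA 701 genes passed, and without CM replicates 1 and 2 in turn, 80 and 53.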

How the data were processed

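Total RNA of mouse EpiSC was labelled with biotin and hybridised to Illumina mouseWG-6 v2 bead arrays, per the labels' protocols. The first table holds an intensity for each of 45281 probes on 36 arrays, deposited as raw values per the file headers. Between 30.18% and 36.61% of an array's intensities lie below zero. The detection p-value beside each intensity was deposited by the authors, in steps that match 936 negative controls. The second table holds log2 values that the authors made with variance stabilisation and robust spline normalisation in lumi (version not stated), per the series' design text and the submitters' processing notes. No genome build is given in the sources used here.

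The raw intensities of all 36 arrays were normalised with neqc of limma 3.58.1 in R 4.3.3 (background from the detection p-values, offset 16, quantile normalisation). Probes detected (p under 0.05) on at least 2 of the 12 arrays were kept (20118), and each symbol was represented by its probe of highest mean, leaving 13854 genes, 10791 with a symbol. Of all probes, 34885 had 1 gene symbol in the platform annotation, 18 several and 10378 none. The CM difference came from a linear model with slide as a block (9 residual degrees of freedom, 4.19 prior) and limma's moderated test, with Benjamini-Hochberg adjustment over all 13854 genes and 0.05 as the threshold. The comparison with Mock used 23 residual degrees of freedom over the arrays of 5 slides. The fit was tested on simulated data of the same layout. The number of arrays limits the precision. No value was equal in the 2 CM arrays among the 45281 probes.

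The 15 named genes in each direction are those with the largest differences among the genes with a symbol that passed, with both CM arrays outside all their slide mates. The 39 gene lists and 6 marker lists come from general knowledge. The comparison, the rule and the lists were chosen with earlier results of these data known, and 5 gene families were added later. Promoter sequences are RefSeq's, build GRCm38.p6, matched by symbol.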

Additional observations from a re-analysis of the deposited data

Results flagged for a closer look

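Among the 131 genes named by size or called in a list, 9 had a compound array whose gap to its nearest neighbour exceeded the critical value of Dixon's test for 10 values, which chance alone flags in about 1 group in 20. Docetaxel was the array in 5 of them, as the highest compound array for S100a6 (11.54, next 11.01), Anxa2 (12.51, next 11.92), Axl (8.90, next 8.25), Hspb1 (10.17, next 9.72) and Krt18 (11.35, next 10.69), all of which were lower in CM. SU5402 was lowest for Espn (6.95, next 7.23), Dorsomorphin dihydrochloride lowest for Rgma (7.41, next 8.02), PF573228 highest for Cited2 (10.67, next 10.42) and BAY 11-7082 highest for Ifitm3 (9.54, next 9.18). PF573228 also had the highest share of probes detected among the compound arrays, 40.8%.

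The CM difference without RA minus the CM difference with RA for 24 h passed the threshold for 19 of the 30 named genes in limma's moderated test over all 13854 genes, of which 6.47% passed, a test chosen after the data had been seen. The 30 genes were picked for large differences without RA, 1 term of the value tested, so their share says nothing beside that of all genes. The arm with RA is a single CM array, with 36 h of CM in place of 24 h, whose scatter is taken from the other arrays of the fit. On the log2 scale, developmental and signalling genes gave Lefty1 (4.10, adjusted p = 2.2e-07), Sp5 (-3.35, adjusted p = 0.00368), Meis2 (-3.01, adjusted p = 4.54e-07), Gbx2 (-2.89, adjusted p = 8.1e-07), Fst (-2.67, adjusted p = 0.000498), Rgma (-2.03, adjusted p = 0.00101) and Sall3 (-1.15, adjusted p = 0.0377). Sp5 lay below its slide mates on both CM arrays without RA and 1.01 above them with RA, and Lefty1 above them without RA and at -2.68 with RA. Membrane, calcium-binding and other genes that were lower in CM without RA gave Lgals3 (-2.56, adjusted p = 0.0118), Rtl8c (-2.55, adjusted p = 8.59e-05), Anxa3 (-2.44, adjusted p = 2.64e-05) and Ahnak (-1.22, adjusted p = 0.00527). Genes that were higher in CM without RA gave Elavl3 (1.98, adjusted p = 0.000336), Il10 (1.70, adjusted p = 0.0174), Tmem91 (1.55, adjusted p = 0.000219), Sncb (1.55, adjusted p = 0.000302), Rsph1 (1.41, adjusted p = 0.0363), Brinp2 (1.21, adjusted p = 0.0383), Rgs11 (1.17, adjusted p = 0.00404) and Espn (1.02, adjusted p = 0.00749). The RA dose and the time with CM move together between these arms and cannot be told apart.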

How the results depend on the processing

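The count of 1297 genes was 1012 with no slide term and between 1168 and 1730 under the 9 other settings that keep all 12 arrays, and leaving out arrays 1 at a time gave 320 to 1559. The low values came from the CM arrays, with 341 genes without CM replicate 1 and 320 without CM replicate 2. The count of called genes that differed by at least 1 on the log2 scale was 222, 26 with the authors' deposited log2 values, on which differences are smaller, and 160 to 249 with single arrays left out. The share of called genes that were higher was 44.5%, 36.4% with median centring, 51.3% with the authors' values, and 32.8% and 30.3% without CM replicates 1 and 2. For CM minus Mock, 141 genes passed, 701 without the CM array with RA, and 80 and 53 without CM replicates 1 and 2. None of the 131 genes followed changed sign under an alternative in which it was tested (with probes detected on all 12 arrays, 108 were), while 67 and 69 missed the threshold without CM replicates 1 and 2, 12 with no slide term, 11 with all arrays in 1 fit and 10 with the authors' values. No paired analysis was possible because the CM replicates and the compound arrays share only numbers given in label order, and slide is the block of the comparison. The depth of an array is its signal over background: genes undetected on all arrays of a group have only a bound there.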
